A study of Mus musculus with 16 samples.

Results

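The 7 border macrophage markers Mrc1, Cd163, Pf4, Lyve1, F13a1, Ms4a7 and Cbr2 were followed through messenger RNA of cells isolated from mouse brain as oligodendrocytes, the glia that make myelin. They were taken by gene symbol from a table of 53801 genes, in which each of the 7 symbols occurred once. The study crossed genotype with diet in male mice, with 4 animals and 4 libraries in each of 4 groups. App_HFD and App_NCD were homozygous App NL-G-F/NL-G-F knock-in mice, kept as an inbred line, whose own App gene carries a humanised amyloid-β sequence together with the Swedish, Beyreuther/Iberian and Arctic mutations. WT_HFD and WT_NCD were wild-type C57BL/6J Jcl mice bought from a breeder. HFD groups ate a high-fat diet in which fat supplied 60.0% of the energy, at 524 kcal in 100 g, and NCD groups a control diet in which it supplied 12.5%, at 345.0 kcal in 100 g. Feeding lasted 6 months from 2 months of age, so all mice were 8 months old, and their brains were flushed with saline through the heart before magnetic sorting of the cells.

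Border macrophages sit in the meninges, around blood vessels and in the choroid plexus, next to the brain but outside the tissue that microglia occupy. They take up proteins and debris from the cerebrospinal fluid and the vessel wall through scavenger and endocytic receptors, and several of their genes are low or silent in microglia of healthy brain. In amyloid disease they have been studied for the handling of amyloid around vessels. The 7 genes are known chiefly as markers of such cells in mouse brain, but Pf4 and F13a1 are also expressed by megakaryocytes and platelets, and Lyve1 by lymphatic endothelium.

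In these sorted cells all 7 genes were detected in every library, and together they were a small part of the RNA. The level is given as counts-per-million (CPM), the deposited count divided by a library total adjusted with TMM factors. The sum of the 7 was 512 to 642 CPM in App_HFD, 514 to 816 CPM in App_NCD, 277 to 552 CPM in WT_HFD and 381 to 722 CPM in WT_NCD. The sum of 12 oligodendrocyte genes was 26943 to 50305 CPM over the 16 libraries, so the labelled cell type was present in each. In bulk RNA of this kind, fewer cells of a type and less RNA per cell cannot be told apart.

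Libraries held 64538297 to 217925484 counts, so counting error was small for all but the rarest of the markers. The library App_NCD 553 stood apart, with 18928 genes detected against 27151 to 30617 in the other 15 and 39.4% of its counts on mitochondrial genes against 1.22% to 4.62%. The libraries WT_HFD 16 and WT_NCD 4 stood apart in another way, since 12 monocyte and neutrophil genes summed to 323 CPM and 452 CPM in them, against 12.6 to 88.9 CPM in the other 14. WT_NCD 4 was also the most deeply sequenced library. The labels number the mice but say nothing of litters or batches, and p-values measure the spread between these animals.

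**Figure D1:**
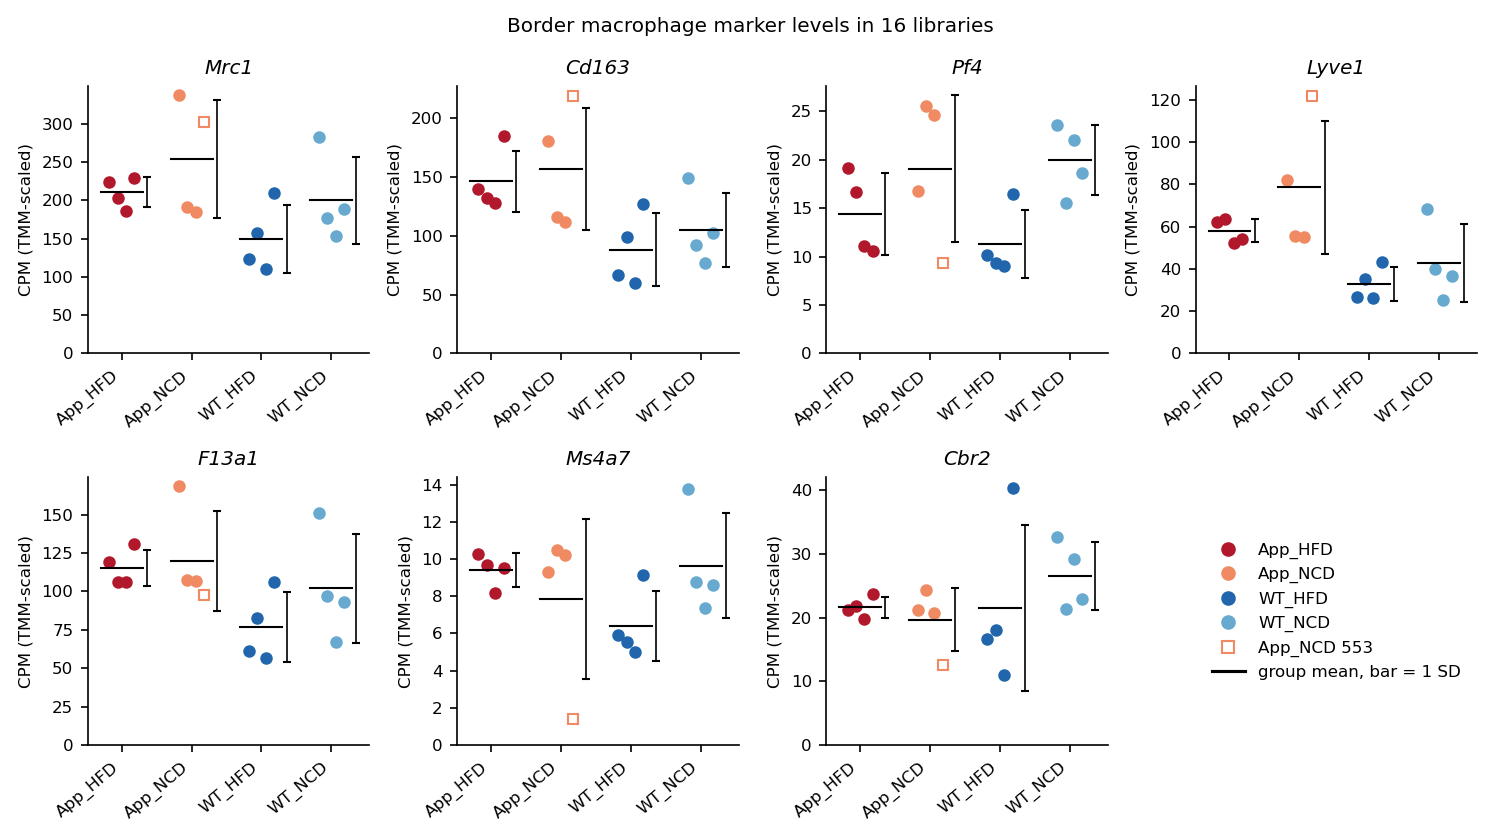
Levels of the 7 border macrophage markers in CPM, 1 panel per gene with an axis that starts at 0, and 1 point per library. Horizontal lines are group means, bars are 1 SD (n = 4), and the open square is App_NCD 553; Lyve1 and Cd163 in App_HFD lie above every WT_HFD library, while Ms4a7 in App_NCD 553 lies at 1.42 CPM.

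Of the 7, Mrc1 had the highest level per length of exon and Ms4a7 the lowest. Over the 16 libraries, levels averaged 32.0 CPM per kb of exon for Mrc1, 22.7 for Cd163, 22.4 for Pf4, 18.2 for Lyve1, 16.9 for Cbr2, 15.4 for F13a1 and 1.87 for Ms4a7. Counts ran from 50 (Ms4a7 in App_NCD 553) to 66174 (Mrc1 in WT_NCD 4). All 7 are protein-coding genes in GENCODE mouse release 21 on mm10. Mrc1 lies at chr2:14229392-14332057 and Cd163 at chr6:124304656-124330527, both on the plus strand. Lyve1 lies at chr7:110850607-110863239, F13a1 at chr13:36867178-37050244, Ms4a7 at chr19:11321039-11336146 and Cbr2 at chr11:120729489-120732114, all on the minus strand. Pf4 is a short gene at chr5:90772435-90773383 on the plus strand. A microRNA gene in an intron of Mrc1 and a pair of antisense genes at F13a1 overlap the markers, and each averaged under 0.08 CPM.

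The stretches just before the transcript starts are shown for 3 genes whose levels tracked each other closely across libraries (Mrc1, Cd163 and F13a1) and for the gene that tracked them least (Pf4). They come from RefSeq on GRCm38.p6, run 5′ to 3′ on the gene's strand and end before the first annotated exon. They are chr2:14229164-14229391 (plus) for Mrc1, chr6:124304401-124304650 (plus) for Cd163, chr13:37050245-37050494 (minus) for F13a1 and chr5:90772185-90772434 (plus) for Pf4. Capitals mark GAGGAA, the core bound by PU.1 and other ETS factors, or its reverse complement TTCCTC.
Mrc1: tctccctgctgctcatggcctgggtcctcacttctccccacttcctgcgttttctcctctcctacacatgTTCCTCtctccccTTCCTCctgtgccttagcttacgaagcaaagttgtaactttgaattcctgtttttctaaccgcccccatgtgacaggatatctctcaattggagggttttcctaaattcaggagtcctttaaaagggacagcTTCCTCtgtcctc
Cd163: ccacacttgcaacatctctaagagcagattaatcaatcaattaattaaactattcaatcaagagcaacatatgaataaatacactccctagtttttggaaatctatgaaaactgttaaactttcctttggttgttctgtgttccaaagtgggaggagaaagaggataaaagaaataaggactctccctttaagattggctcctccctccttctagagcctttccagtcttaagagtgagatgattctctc
F13a1: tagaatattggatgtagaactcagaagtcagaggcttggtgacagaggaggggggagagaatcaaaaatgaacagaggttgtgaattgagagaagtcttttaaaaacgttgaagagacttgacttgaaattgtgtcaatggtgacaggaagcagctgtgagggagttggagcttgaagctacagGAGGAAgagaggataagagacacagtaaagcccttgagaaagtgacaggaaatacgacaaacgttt
Pf4: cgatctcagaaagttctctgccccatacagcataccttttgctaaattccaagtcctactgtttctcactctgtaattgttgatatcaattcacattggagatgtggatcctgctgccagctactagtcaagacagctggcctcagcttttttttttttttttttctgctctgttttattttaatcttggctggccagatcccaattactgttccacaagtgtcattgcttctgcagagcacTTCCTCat
RefSeq windows of 250 bases were at hand for 6 of the 7 genes, 8 windows in all, with none for Lyve1. GAGGAA on either strand was in 4 of the 8, 1 window each of Mrc1, F13a1, Pf4 and Cbr2, against 23.3% of 32851 such windows of mouse genes. Mrc1 held 3 copies, which begin 180, 167 and 35 bases before the RefSeq start, and Pf4 held 1 that begins 8 bases before its own. The Mrc1 window runs to chr2:14229413, so the printed Mrc1 stretch, cut before the first annotated exon, stops short of that start. TGCTGA, part of the site bound by MAF factors, searched on both strands, was in 0 of the 8 windows against 16.1% of all. With no copy of TGCTGA, no GAGGAA overlapped one. The printed Cd163 stretch holds neither of them.

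All 3 receptors among the markers had higher means in both App groups than in both WT groups. Values follow in the order of replicates 547, 559, 560 and 561 for App_HFD, 537, 538, 545 and 553 for App_NCD, 2, 3, 15 and 16 for WT_HFD, and 4, 5, 11 and 12 for WT_NCD. Mrc1, the mannose receptor CD206, had 225, 204, 187 and 229 CPM in App_HFD, 338, 192, 185 and 302 CPM in App_NCD, 123, 157, 109.9 and 209.5 CPM in WT_HFD, and 283, 177, 153 and 188 CPM in WT_NCD. WT_HFD held the lowest Mrc1 values, and the 4 groups overlapped, since WT_HFD 16 and WT_NCD 4 reached the level of App libraries. Cd163, the scavenger receptor for haemoglobin bound to haptoglobin, had 140.2, 132, 128 and 184 CPM in App_HFD, 180.2, 116, 112 and 219 CPM in App_NCD, 66.9, 98.6, 59.6 and 127 CPM in WT_HFD, and 149, 91.8, 76.8 and 102 CPM in WT_NCD. App_HFD and WT_HFD did not overlap, although the lowest App_HFD and the highest WT_HFD value were close. Lyve1, a receptor for hyaluronan, had 62.3, 63.5, 52.4 and 54.3 CPM in App_HFD, 82.3, 55.8, 54.9 and 122 CPM in App_NCD, 26.7, 35.1, 26.0 and 43.2 CPM in WT_HFD, and 68.6, 40.1, 25.5 and 36.9 CPM in WT_NCD. Every App library was above 7 of the 8 WT libraries for Lyve1, and WT_NCD 4 was the exception.

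The secreted products differed from each other. F13a1, the A subunit of the clot-stabilising coagulation factor XIII, had 119, 106, 106 and 131 CPM in App_HFD, 168, 107, 107 and 97.5 CPM in App_NCD, 61.4, 83.0, 56.9 and 106 CPM in WT_HFD, and 151, 97.0, 66.9 and 92.9 CPM in WT_NCD. WT_NCD 4 and WT_HFD 16 again lay among the App libraries. Pf4, the chemokine CXCL4, had 19.2, 16.7, 11.1 and 10.6 CPM in App_HFD, 16.8, 25.5, 24.6 and 9.34 CPM in App_NCD, 10.2, 9.33, 9.07 and 16.5 CPM in WT_HFD, and 23.6, 15.5, 22.0 and 18.6 CPM in WT_NCD. Low Pf4 values occurred in both HFD groups and in App_NCD 553, and the genotypes overlapped throughout.

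Of the remaining pair, Ms4a7 encodes a membrane protein with several spans and Cbr2 a carbonyl reductase. Ms4a7 had 10.3, 9.69, 8.16 and 9.52 CPM in App_HFD, 9.33, 10.5, 10.2 and 1.42 CPM in App_NCD, 5.93, 5.55, 4.98 and 9.14 CPM in WT_HFD, and 13.8, 8.75, 7.38 and 8.62 CPM in WT_NCD. App_NCD 553 had the lowest Ms4a7 value by far, and the other 7 App libraries lay within 8.16 to 10.5 CPM. Cbr2 had 21.2, 21.8, 19.8 and 23.7 CPM in App_HFD, 21.2, 24.3, 20.8 and 12.6 CPM in App_NCD, 16.7, 18.0, 11.0 and 40.4 CPM in WT_HFD, and 32.7, 21.4, 29.3 and 23.0 CPM in WT_NCD. WT_HFD held both the lowest and the highest Cbr2 value.

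With all 16 libraries, group means ran in the order App_NCD, App_HFD, WT_NCD, WT_HFD, from high to low, for Mrc1, Cd163, Lyve1 and F13a1. For Pf4 the order was WT_NCD, App_NCD, App_HFD, WT_HFD, for Ms4a7 WT_NCD, App_HFD, App_NCD, WT_HFD, and for Cbr2 WT_NCD, App_HFD, WT_HFD, App_NCD. Neighbours in each order overlapped in range for all 7 genes. Leaving out App_NCD 553 changed the order for 4 of the 7 and kept it for Mrc1, Lyve1 and F13a1. Cd163 then averaged 146 CPM in App_HFD and 136 CPM in App_NCD, so that App_HFD came first. Pf4 then averaged 22.3 CPM in App_NCD, which put it first, against 19.9 CPM in WT_NCD. Ms4a7 likewise had App_NCD first, at 10.0 CPM, against 9.63 CPM in WT_NCD. For Cbr2 App_NCD moved from last to second place, with 21.6 CPM in App_HFD, 22.1 CPM in App_NCD and 21.5 CPM in WT_HFD. The neighbours in these orders again overlapped in range. With all libraries Lyve1 averaged 58.1 ± 5.57 CPM in App_HFD, 78.7 ± 31.4 CPM in App_NCD, 32.7 ± 8.09 CPM in WT_HFD and 42.8 ± 18.3 CPM in WT_NCD (SD, n = 4 each). Without App_NCD 553 the App_NCD mean of Lyve1 was 64.3 ± 15.6 CPM (SD, n = 3), and that of Ms4a7 was 10.0 ± 0.602 CPM against 7.86 ± 4.32 CPM with it. WT_HFD 16 was the highest of its group for 7 of 7 markers, and WT_NCD 4 likewise for 7 of 7. These are the libraries with the high monocyte and neutrophil sums, and their homeostatic microglia genes were also the highest of their groups, at 3434 CPM in WT_HFD 16 against 1798 to 2329 CPM in the other WT_HFD libraries, and at 3822 CPM in WT_NCD 4 against 2379 to 2523 CPM in the other WT_NCD libraries. The part of those cells in the marker levels was not tested.

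Genotype was compared over both diets with edgeR's quasi-likelihood test on all tested genes, 8 App against 8 WT libraries. App mice came from a kept inbred line and WT mice from a breeder, so genotype and source cannot be told apart. Lyve1 and Cd163 were higher in App, and the other 5 markers did not pass the test. Lyve1 averaged 68.4 ± 23.6 CPM in App and 37.8 ± 14.2 CPM in WT (SD, n = 8 each), a log2 fold change of 0.85 ± 0.209 (SE; edgeR, adjusted p = 0.0098). Cd163 averaged 152 ± 38.5 CPM in App and 96.5 ± 30.3 CPM in WT, a log2 fold change of 0.66 ± 0.198 (edgeR, adjusted p = 0.032). A call here means an adjusted p under 0.05 over all 21768 genes tested. The count was thus 2 of 7 markers, both higher in App, against 17.0% of all tested genes called in either direction and 10.6% called higher, and the median log2 fold change of the 7 was 0.41 against -0.01 for all tested genes. Mrc1 had 0.42 ± 0.174 (adjusted p = 0.117) and F13a1 0.41 ± 0.178 (adjusted p = 0.132), while Pf4 had 0.14 ± 0.213, Ms4a7 0.13 ± 0.294 and Cbr2 -0.21 ± 0.222, all by edgeR. For Cbr2 the interval of 2 SE ran from -0.66 to 0.23, and for Ms4a7 from -0.45 to 0.72. Both intervals hold differences in either direction.

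The call of Lyve1 held in each of the 25 alternatives tried, with log2 fold changes of 0.60 to 1.10 and adjusted p of 0.000123 to 0.0431. That of Cd163 held in 13 of the 25, over a range of 0.42 to 0.88 and adjusted p of 0.00491 to 0.172, and it kept its sign in all 25. Leaving out 1 library at a time ended the Cd163 call in 10 of 16 cases, namely without App_HFD 547, 559 or 561, App_NCD 537, WT_HFD 2, 3 or 15, or WT_NCD 5, 11 or 12, where adjusted p by edgeR was at most 0.0815. Without App_NCD 553, Lyve1 had a log2 fold change of 0.69 ± 0.179 (edgeR, adjusted p = 0.00828) and Cd163 0.53 ± 0.183 (adjusted p = 0.0359), still 2 of 7 against 33.6% of tested genes called in either direction and 16.2% higher. Without WT_HFD 16 and WT_NCD 4 together, 4 markers were called higher, with Lyve1 at 1.10 ± 0.191, Cd163 at 0.88 ± 0.185, Mrc1 at 0.63 ± 0.156 and F13a1 at 0.63 ± 0.153, against 10.5% of tested genes called higher. Without App_NCD 553 and WT_NCD 4, 5 markers were called, all higher in App, against 33.9% of tested genes in either direction. limma-voom with quality weights called 6, all but Cbr2, against 46.7% of tested genes. WT_HFD 16 and WT_NCD 4 have the highest levels of their groups for all 7 markers, so leaving them out widens the difference by construction.

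**Figure D2:**
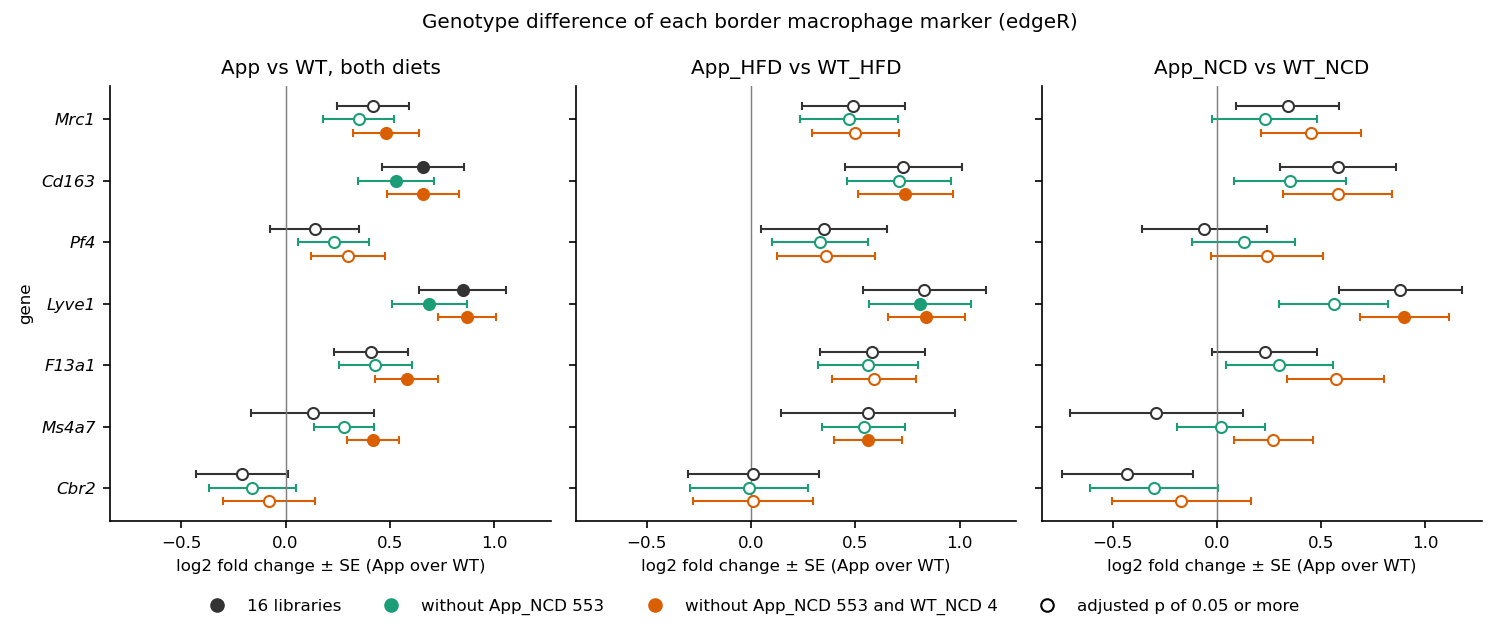
Log2 fold change of each marker, App over WT, with bars of 1 SE, for both diets together, for the high-fat diet and for the control diet (edgeR). Black is all 16 libraries, green leaves out App_NCD 553 and orange leaves out App_NCD 553 and WT_NCD 4, and filled points have an adjusted p under 0.05: with all libraries these are Lyve1 and Cd163 over both diets.

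On the high-fat diet alone, Lyve1 and Cd163 did not overlap between App_HFD and WT_HFD, but 0 of 7 markers passed edgeR's test, against 7.14% of tested genes in either direction and 5.09% higher. Lyve1 averaged 58.1 ± 5.57 CPM in App_HFD and 32.7 ± 8.09 CPM in WT_HFD (SD, n = 4 each), a log2 fold change of 0.83 ± 0.296 (edgeR, adjusted p = 0.119). Cd163 averaged 146 ± 25.9 CPM in App_HFD and 88.1 ± 31.2 CPM in WT_HFD, a log2 fold change of 0.73 ± 0.28 (edgeR, adjusted p = 0.151). Groups that do not overlap, App_HFD above WT_HFD, were found for 15.0% of tested genes. At an unadjusted p under 0.05, 3949 genes, among them Lyve1, Cd163 and F13a1, passed by edgeR, while DESeq2 called 0 of 7 after adjustment against 11.5% of tested genes and limma-voom with quality weights called 5 against 30.7%. With App_HFD and WT_HFD fitted alone, edgeR called Lyve1, against 23.6% of tested genes. F13a1 had a log2 fold change of 0.58 ± 0.252, Ms4a7 0.56 ± 0.417, Mrc1 0.49 ± 0.247, Pf4 0.35 ± 0.302 and Cbr2 0.01 ± 0.313, and the sign of Cbr2 turned in 18 of 26 alternatives, among them 13 of the 16 that leave out 1 library. App_NCD 553 lies outside these groups and enters through the shared estimate of spread, the scaling and the filter. Without it Lyve1 was called at 0.81 ± 0.246 (edgeR, adjusted p = 0.0313, with a range of 0.000728 to 0.312 over 26 alternatives), against 19.3% of tested genes called. Without WT_HFD 16 and WT_NCD 4, Lyve1 (0.99 ± 0.269), Cd163 (0.96 ± 0.262) and F13a1 (0.78 ± 0.218) were called, against 7.69% of tested genes.

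On the control diet Lyve1 and Cd163 again had the largest positive differences, with ranges that overlapped between App_NCD and WT_NCD. No marker passed, 0 of 7 against 8.39% of tested genes in either direction and 6.5% higher, with 5721 genes at an unadjusted p under 0.05, and Lyve1 had the lowest adjusted p, with 78.7 ± 31.4 CPM in App_NCD and 42.8 ± 18.3 CPM in WT_NCD and a log2 fold change of 0.88 ± 0.296 (edgeR, adjusted p = 0.0785). Lyve1 was the only marker with an unadjusted p under 0.05 by edgeR, and it was the 1 marker that DESeq2 and limma-voom each called, against 15.6% of tested genes by DESeq2 and 33.2% by limma-voom. Cd163 had 0.58 ± 0.279 (adjusted p = 0.2), Mrc1 0.34 ± 0.247, F13a1 0.23 ± 0.252, Pf4 -0.06 ± 0.301, Ms4a7 -0.29 ± 0.416 and Cbr2 -0.43 ± 0.314. Without App_NCD 553 the Lyve1 difference was 0.56 ± 0.262 (edgeR, adjusted p = 0.15), and without WT_NCD 4 it was 1.17 with an adjusted p of 0.0193, within a range of 0.00877 to 0.305 over the 26 alternatives. With both left out it was 0.90 ± 0.213 (edgeR, adjusted p = 0.00877), against 18.9% of tested genes called. In that setting Cd163, Lyve1, F13a1 and Ms4a7 did not overlap between App_NCD and WT_NCD, against 19.1% of tested genes with App_NCD above WT_NCD. WT_NCD 4 was the highest WT_NCD library for each of these genes, and App_NCD 553 the lowest App_NCD library for F13a1 and Ms4a7. Leaving them out thus lessens the overlap by construction. Without WT_HFD 16 and WT_NCD 4, Lyve1 was called at 1.20 ± 0.271 (edgeR, adjusted p = 0.0151), against 7.39% of tested genes. With all libraries 0 of 7 were free of overlap, against 7.66%.

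The diet comparison in wild type gave lower mean levels on the high-fat diet for all 7 markers, and none of the differences passed. Log2 fold changes of WT_HFD over WT_NCD were negative for 7 of 7 in all 26 alternatives and ran from -0.82 for Pf4 to -0.25 for Cd163, with a median of -0.41 against -0.02 for all tested genes. Pf4 averaged 11.3 ± 3.52 CPM in WT_HFD and 19.9 ± 3.60 CPM in WT_NCD (SD, n = 4 each), a log2 fold change of -0.82 ± 0.303 (edgeR, unadjusted p = 0.0158, adjusted p = 1.0). It was the 1 marker with an unadjusted p under 0.05. edgeR called 0 of the 21768 genes in this comparison (0.0%), with 419 at an unadjusted p under 0.05, DESeq2 called 7 genes (0.0322%) and limma-voom 6 (0.0276%), and none of these calls was a marker. Mrc1 had -0.42 ± 0.247, F13a1 -0.41 ± 0.252, Lyve1 -0.39 ± 0.294, Ms4a7 -0.59 ± 0.417 and Cbr2 -0.31 ± 0.313. WT_NCD 4, the library with the highest markers of its group, sits on the control side, and without it and App_NCD 553 the median was -0.21. Without the highest library of each side, WT_HFD 16 and WT_NCD 4, the median was -0.41. WT_HFD and WT_NCD overlapped for all 7, while 0.951% of tested genes had WT_HFD wholly below WT_NCD. Without WT_HFD 16 and WT_NCD 4, Pf4, Ms4a7 and Cbr2 lay wholly lower in WT_HFD, against 5.14% of tested genes. WT_HFD 16 was the highest WT_HFD library for all 7 markers, so leaving it out opens such gaps by construction.

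In App mice the markers did not share a direction with diet when all libraries were kept. Without App_NCD 553 only Cd163 was positive, at 0.11 ± 0.27, and the others ran from -0.63 (Pf4) to -0.02 (Cbr2). All of these values but that of Pf4 lay within 1 SE of 0. With all libraries, log2 fold changes of App_HFD over App_NCD ran from -0.44 (Lyve1) to 0.26 (Ms4a7), with 5 of 7 negative and a median of -0.10 against 0.04 for all tested genes. No marker was called by edgeR, DESeq2 or limma-voom, and none had an unadjusted p under 0.05 by edgeR. App_HFD and App_NCD overlapped for all 7, while 2.46% of tested genes had App_HFD wholly below App_NCD. Over all tested genes edgeR called 0.0%, with 2586 at an unadjusted p under 0.05, DESeq2 called 102 (0.469%) and limma-voom 161 (0.74%). Pf4 averaged 14.4 ± 4.23 CPM in App_HFD and 19.1 ± 7.59 CPM in App_NCD, a log2 fold change of -0.41 ± 0.302. Without App_NCD 553 the App_NCD mean of Pf4 was 22.3 ± 4.84 CPM (SD, n = 3) and the log2 fold change -0.63 ± 0.247 (edgeR, unadjusted p = 0.0227, adjusted p = 0.617). Ms4a7, at 9.41 ± 0.900 CPM in App_HFD and 7.86 ± 4.32 CPM in App_NCD, had a log2 fold change of 0.26 ± 0.416, which turned to -0.08 ± 0.213 without that library.

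Averaged over genotypes, the diet difference of Pf4 was -0.62 ± 0.214 on the log2 scale (edgeR, unadjusted p = 0.0114, adjusted p = 0.649), and without App_NCD 553 it was -0.73 ± 0.169 (adjusted p = 0.108), where 0.255% of tested genes were called. It did not pass edgeR's test, whereas limma-voom with quality weights called it at -0.81 (adjusted p = 0.0061, with a range up to 0.993 over 25 alternatives), against 2.35% of tested genes. All 7 markers had negative values by edgeR with all libraries, from -0.62 to -0.09, and 0 of 7 were called against 0.0459% of tested genes, and DESeq2 called 0 of 7 against 0.51%. Lyve1 had -0.41 ± 0.208 and Mrc1 -0.34 ± 0.174, and Pf4 was the 1 marker with an unadjusted p under 0.05. The diet effect was not shown to differ between genotypes for any marker, with 0 of 7 interactions called by edgeR (0.0% of tested genes), DESeq2 (0.0138%) or limma-voom (0.0%) and none at an unadjusted p under 0.05. The largest interaction by size was that of Ms4a7, at 0.85 ± 0.589 (adjusted p = 0.851), with an interval of 2 SE from -0.33 to 2.02. That of Lyve1 was -0.05 ± 0.415, from -0.88 to 0.78.

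Across libraries 4 of the markers tracked each other closely, and the other 3 did so less. This likeness is given as a description without a test. Group means were subtracted from log2 CPM so that only variation within groups was compared, over the 15 libraries without App_NCD 553. Mrc1, Cd163, Lyve1 and F13a1 correlated among themselves with Pearson's r of 0.847 to 0.965 (median 0.949 over 6 pairs) and Spearman's rho of 0.904 to 0.968. Pf4, Ms4a7 and Cbr2 correlated at r of 0.637 to 0.757 and rho of 0.539 to 0.643. Pairs of one of these 3 with one of the first 4 ran from r of 0.125 to 0.777, with the lowest values for Pf4. Ms4a7 was thus about as close to Lyve1 (0.777) and F13a1 (0.742) as to Cbr2 (0.757), and the 3 do not stand as a set of their own. Without App_NCD 537 and WT_NCD 4 as well, r among the first 4 was 0.751 to 0.958. Pairs across the first 4 and the other 3 then ran from 0.24 to 0.879, so the ranges overlapped. The median of these pairs was 0.702, against 0.588 with both libraries kept. With App_NCD 553 kept in, pairs across the first 4 and the other 3 ran from -0.249 to 0.598, and that library was high in Cd163, Lyve1 and Mrc1 and low in Pf4, Ms4a7 and Cbr2. WT_HFD 16, the highest of its group for every marker, was kept in all of these settings, and r was not recomputed without it. All points share library preparation and depth, and the grouping was made after the values were seen.

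**Figure D3:**
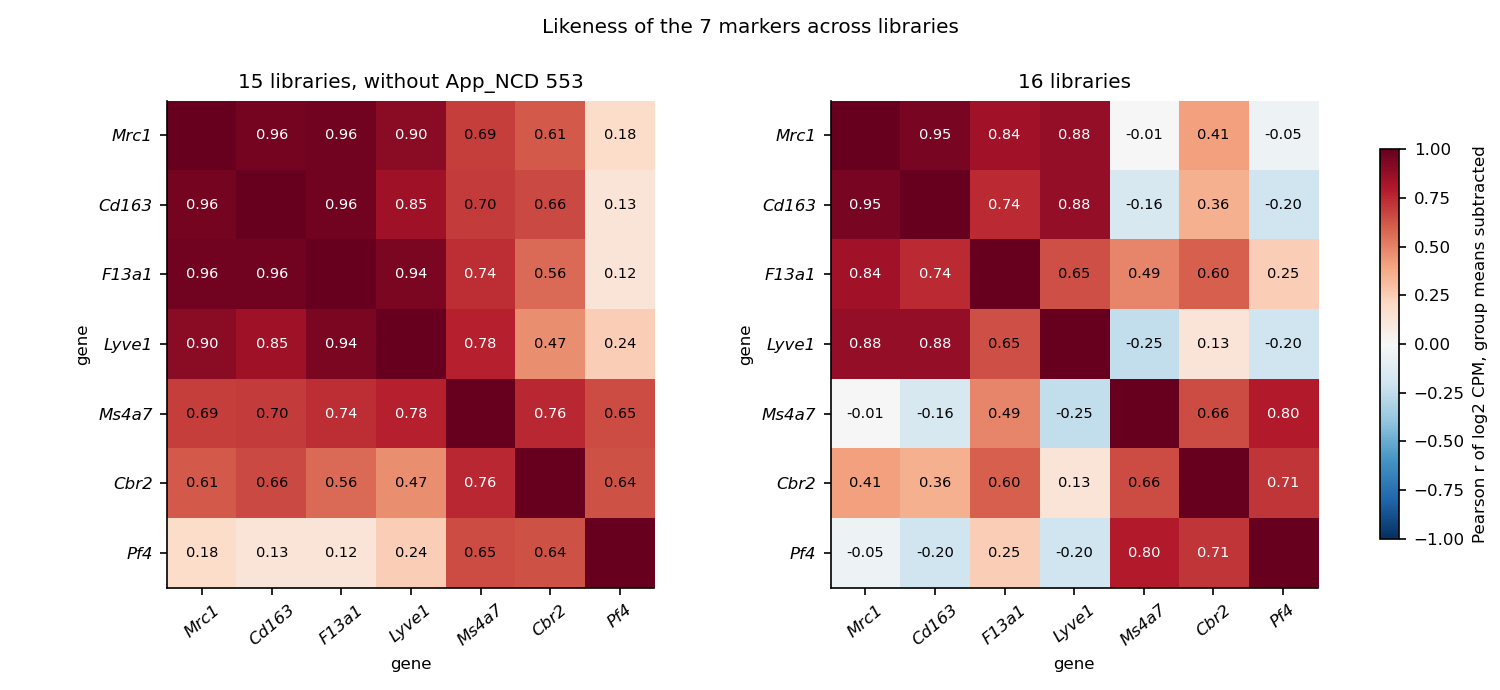
Pearson's r between the 7 markers over 15 libraries without App_NCD 553 (left) and over all 16 (right), from log2 CPM with group means subtracted; both axes list the genes and colour runs from -1 to 1. On the left Mrc1, Cd163, F13a1 and Lyve1 form a block of high r and Pf4 is least like them, and on the right the low Ms4a7, Pf4 and Cbr2 of App_NCD 553 lower the values of these 3 with the block.

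Ratios to Mrc1 showed how unequal the differences were between markers. The ratio of Lyve1 to Mrc1 CPM was 0.277 ± 0.0306 in App_HFD, 0.308 ± 0.0673 in App_NCD, 0.221 ± 0.0129 in WT_HFD and 0.208 ± 0.0337 in WT_NCD (SD, n = 4 each). App_HFD was above WT_HFD in each library, narrowly, with a lowest ratio of 0.2372 in App_HFD against a highest of 0.2369 in WT_HFD. Cd163 over Mrc1 was 0.692 ± 0.0800 in App_HFD, 0.617 ± 0.0799 in App_NCD, 0.580 ± 0.0436 in WT_HFD and 0.522 ± 0.0167 in WT_NCD. Cbr2 over Mrc1 was 0.103 ± 0.00568 in App_HFD, 0.0858 ± 0.0402 in App_NCD, 0.136 ± 0.0409 in WT_HFD and 0.137 ± 0.0359 in WT_NCD. Without App_NCD 553 the App_NCD ratio was 0.277 ± 0.0290 for Lyve1, 0.581 ± 0.0409 for Cd163 and 0.1005 ± 0.0335 for Cbr2 (SD, n = 3). Lyve1 thus had a larger mean ratio to Mrc1 in both App groups than in both WT groups and Cbr2 a smaller one, with and without that library and with no test of these ratios. For Cd163 the App_NCD mean without it was level with WT_HFD. The Cbr2 ratios overlapped between genotypes, with a lowest of 0.09985 in WT_HFD against a highest of 0.1071 in App_HFD. The highest Cbr2 ratios were 0.193 in WT_HFD 16 and 0.1912 in WT_NCD 11. F13a1 over Mrc1 was 0.547 ± 0.0266 in App_HFD, 0.489 ± 0.116 in App_NCD, 0.513 ± 0.0123 in WT_HFD and 0.503 ± 0.0500 in WT_NCD, and without App_NCD 553 it was 0.545 ± 0.0413 in App_NCD.

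Of 18 further genes of these cells, 3 were higher in App over both diets by edgeR and none lower, against 17.0% of all tested genes called in either direction and 10.6% called higher. Their median log2 fold change was 0.45. They were Hpgd, which breaks down prostaglandins (1.25 ± 0.175), Lilra5, an immunoglobulin-like receptor (1.04 ± 0.248, adjusted p = 0.00833), and Siglec1, the sialic acid receptor CD169 (0.82 ± 0.266, adjusted p = 0.0447). Without App_NCD 553, Folr2, Ccl24 and Tgfbi were called as well, so that 6 of 18 were higher, against 16.2% of tested genes called higher and 33.6% in either direction. Stab1, a scavenger receptor of these cells that is named here after its values were seen, had -0.05 ± 0.271 and averaged 367 ± 31.8 CPM in App_HFD, 296 ± 168 CPM in App_NCD, 295 ± 68.7 CPM in WT_HFD and 396 ± 72.1 CPM in WT_NCD. The App_NCD mean of Stab1 rests on App_NCD 553, at 62.65 CPM, and without it was 374 ± 75.9 CPM (SD, n = 3), with a genotype log2 fold change of 0.09 ± 0.123. Of 7 genes of MHC class II, which some border macrophages carry, 5 were higher in App and none lower, with a median of 1.02, against the same 10.6% higher. Microglia genes were also higher in App, as given below, and which cells held the MHC class II RNA was not tested. Diet called none of the 18 genes in either genotype by edgeR, which called 0.0% of all tested genes there. Fitted values were lower in WT_HFD than in WT_NCD for 17 of 18, while 46.3% of all tested genes had higher ones. Without App_NCD 553 and WT_NCD 4 they were lower for 14 of 18, while 48.4% of all tested genes had higher ones.

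The genotype difference of the markers was set beside that of microglia in the same libraries. The share of all tested genes called higher in App over both diets was 10.6%. Of 10 genes shared by all macrophages, 10 were higher in App over both diets, with a median log2 fold change of 1.69. Of 12 homeostatic microglia genes, 10 were higher with a median of 1.10, and of 15 disease-associated microglia genes 15 were higher with a median of 4.27, against 2 of 7 with a median of 0.41 for the markers. The summed homeostatic microglia genes were 5118 to 8830 CPM in App_HFD, 5924 to 7933 CPM in App_NCD, 1798 to 3434 CPM in WT_HFD and 2379 to 3822 CPM in WT_NCD. The mean log2 CPM of the markers minus that of the homeostatic microglia genes averaged -2.68 ± 0.27 in App and -1.92 ± 0.20 in WT (SD, n = 8 each), so beside microglia genes the mean of the markers was lower in App. App_HFD 561 and WT_HFD 2 touched at -2.27, and the other 7 App libraries lay below all WT libraries. Against the 10 genes shared by all macrophages the difference averaged -2.74 ± 0.23 in App and -1.09 ± 0.16 in WT, with no overlap. Single markers were unequal beside the homeostatic microglia genes. Cbr2 averaged -3.87 in App_HFD and -3.98 in App_NCD, against -2.81 in WT_HFD and -2.58 in WT_NCD. Lyve1 averaged -2.45 in App_HFD and -2.03 in App_NCD, against -2.07 in WT_HFD and -1.96 in WT_NCD. Its App_NCD libraries ran from -2.72 to -0.75. The highest of these was App_NCD 553, which raised the App_NCD mean of Lyve1. Border macrophages express genes of both lists as well, and the part of microglial RNA in single markers was not tested.

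**Figure D4:**
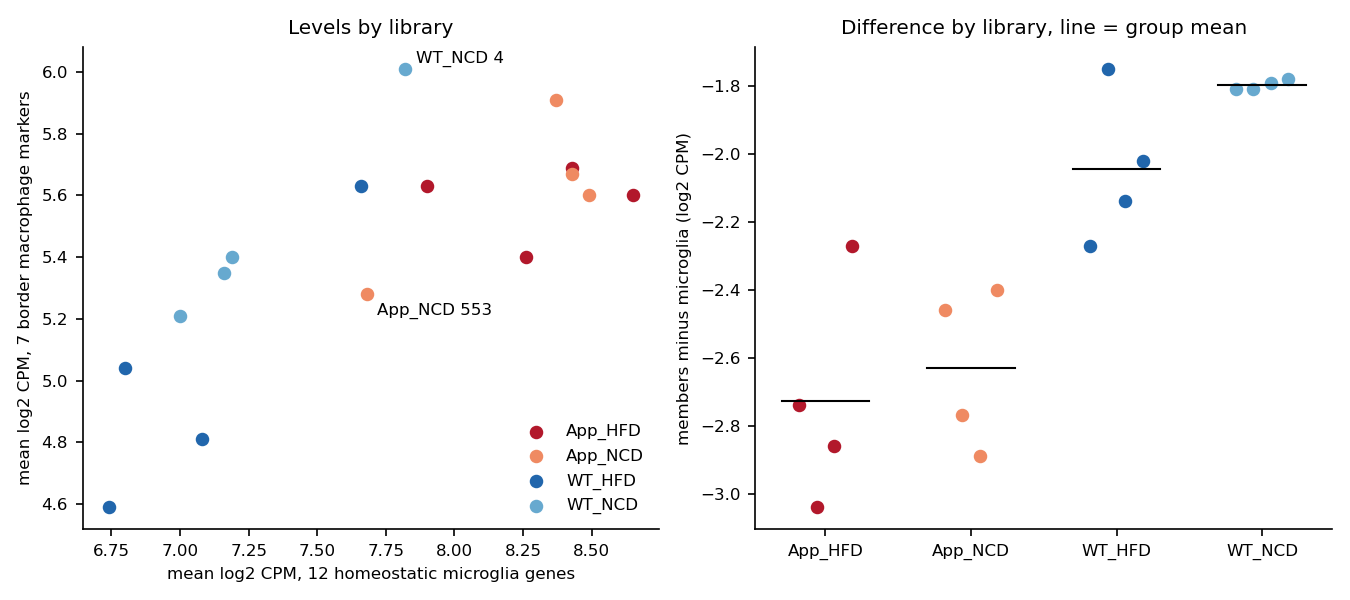
Left, mean log2 CPM of the 7 markers against that of 12 homeostatic microglia genes, 1 point per library; right, their difference by library with a line at each group mean. The App libraries lie further right on average, at 8.27 ± 0.33 in App and 7.18 ± 0.38 in WT (SD, n = 8 each), but App_NCD 553, at 7.68, lies left of WT_NCD 4, at 7.82; marker levels overlap between genotypes, and the 4 WT_NCD libraries share a difference near -1.8.

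Other cells that express some of the markers were measured by genes of their own. For platelets, which carry Pf4 and F13a1, 9 genes summed to 5.21 to 7.04 CPM in App_HFD, 4.29 to 7.44 CPM in App_NCD, 5.82 to 10.2 CPM in WT_HFD and 5.24 to 6.79 CPM in WT_NCD. The platelet chemokine Ppbp and the collagen receptor Gp6 were under 1 CPM in all 16 libraries, and Gp6 was at 0 in all 12 libraries outside WT_HFD. Of the 8 platelet genes tested, 1 (Clec1b) was higher in App, against 10.6% of all tested genes called higher. For lymphatic endothelium, which carries Lyve1, 6 genes summed to 97.6 to 143.5 CPM in App_HFD, 118 to 164 CPM in App_NCD, 133 to 145 CPM in WT_HFD and 122 to 147 CPM in WT_NCD, of which Prox1, a gene that oligodendrocytes also express, made up most. Ccl21a and Mmrn1, further lymphatic genes, were under 1 CPM in all libraries, and of the 4 tested 1 (Pdpn) was lower in App, or 2 (Pdpn and Flt4) without App_NCD 553. Over all tested genes 6.34% were lower in App, and 17.4% without App_NCD 553. Endothelial genes were lower in App for 6 of 10, pericyte and smooth muscle genes for 6 of 8, choroid plexus genes for 6 of 8, fibroblast genes of the meninges for 2 of 8, erythroid genes for 3 of 5 with a median log2 fold change of -1.61, and monocyte and neutrophil genes for 2 of 12, with none higher in these lists. Without App_NCD 553 they were lower for 8 of 10 endothelial, 8 of 8 pericyte and smooth muscle, 8 of 8 choroid plexus, 8 of 8 fibroblast, 4 of 5 erythroid and 3 of 12 monocyte and neutrophil genes. Border macrophages live beside several of these cells, and the part of tissue carried along in the sort was not tested. For the erythroid genes the median log2 fold change was -3.47 on the high-fat diet and 0.21 on the control diet. Their sums were 9046 CPM in WT_HFD 2 and 4717.5 CPM in WT_HFD 16, and at most 1195 CPM in the other libraries.

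**Figure D5:**
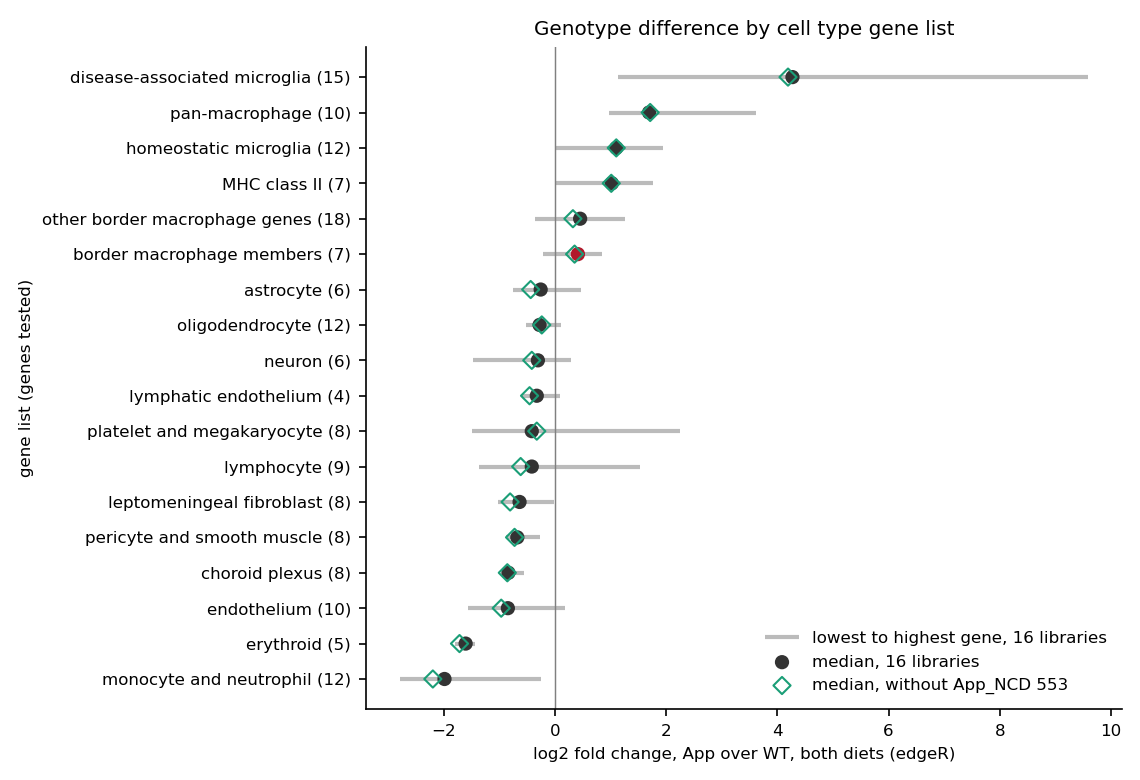
Log2 fold change of App over WT across both diets for 18 gene lists (edgeR), with the number of tested genes in brackets; filled circles are medians over all libraries, diamonds medians without App_NCD 553, and grey lines run from the lowest to the highest gene. The 7 markers, in red, have a median of 0.41, below the microglia lists and above the endothelial, fibroblast, pericyte and choroid plexus lists.

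The genes most like the markers were found by Pearson's r with their mean log2 CPM, group means subtracted, over the 15 libraries without App_NCD 553 and 14790 tested genes of at least 1 CPM on average. Among the 10 closest were Etv3 (r = 0.976), Gm8995, Susd1, Bend6, Pan3, Trim12a, Trim30a, Il2rg and Abca9 (0.947). Etv3 is an ETS-family repressor and Il2rg the common receptor chain of several interleukins. Over all genes the median r was -0.025 and the 95th percentile 0.751, so high values were common. With App_NCD 553 kept in, 3 of the 10 were again among the closest 10. For single markers the closest gene was Samhd1 for Mrc1 (0.968), Aoah for Cd163 (0.952) and for F13a1 (0.978), Rbpj for Lyve1 (0.972), Pkig for Pf4 (0.959), Sp110 for Ms4a7 (0.966) and Ccr7 for Cbr2 (0.959). Among the lists, the 17 further border macrophage genes at this level had a median r of 0.81 with the markers, homeostatic microglia genes 0.698, monocyte and neutrophil genes 0.807, endothelial genes -0.09 and oligodendrocyte genes -0.489. WT_HFD 16 and WT_NCD 4 had the highest markers of their groups and the high monocyte and neutrophil sums. These values of r were not recomputed without that pair.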

How the data were processed

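Poly(A) RNA of cells sorted magnetically as oligodendrocytes was sequenced from 16 mice with a directional library kit, per the labels' protocols. The deposited table holds estimated counts per gene, which the authors made with fastp 0.23.2, HISAT2 2.2.1 and StringTie 2.2.1 on mm10, with bedtools 2.25.0 also named, per the submitters' processing notes. Which annotation they counted against is not given in the sources used here. Rounding changed nothing, since each deposited value was a whole number; StringTie derives a count from coverage and can split reads between overlapping genes. No other per-sample column was in the table. Of 53801 gene IDs, 99.7% were in GENCODE mouse release 21.

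The filterByExpr rule on low counts kept 21768 genes, and TMM factors scaled the libraries. edgeR 4.0.16 (R 4.3.3, limma 3.58.1) fitted 4 groups over 16 libraries with robust quasi-likelihood dispersions and 12 residual degrees of freedom, with 7 contrasts and Benjamini-Hochberg adjustment over all tested genes. Standard errors came from the log2 fold change and the F value. Log2 CPM used a prior count of 0.5. Alternatives were DESeq2 1.42.0, RLE factors, library totals, scaling to oligodendrocyte genes, other filters, limma-voom with quality weights, the compared groups alone, and leaving out libraries. The edgeR script was tested on simulated data. No pair of libraries held identical values. The further genes named are those called in a list, up to 6, and those closest by r, of which 1 is not reported here. The 7 markers and all lists were chosen with earlier results of these data known, and leaving out the pairs of libraries was chosen after seeing the data.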

Additional observations from a re-analysis of the deposited data

Results flagged for a closer look

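Within groups of 4 libraries, 3 marker values lay far from the rest of their group by Dixon's test, out of 32 groups examined (the 7 markers and their sum in 4 groups); chance alone flags about 1 in 20 groups. Pf4 was 16.5 CPM in WT_HFD 16 and 9.07 to 10.2 CPM in the other WT_HFD libraries. F13a1 was 168 CPM in App_NCD 537 and 97.5 to 107 CPM in the other App_NCD libraries. Ms4a7 was 1.42 CPM in App_NCD 553 and 9.33 to 10.5 CPM in the other App_NCD libraries.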

How the results depend on the processing

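The Lyve1 genotype call over both diets held in all 25 alternatives. Of 1253 recomputed log2 fold changes of markers, 1152 kept their sign and side of the threshold, 29 passed it anew, 12 no longer passed and 60 changed sign, and the cause was not tested. All 12 that no longer passed were Cd163 over both diets, including library totals (0.42) and no filter (0.62). Markers called for genotype over both diets were 1 with library totals, 1 with no filter, 6 by limma-voom, 5 without App_NCD 553 and WT_NCD 4, 4 without WT_HFD 16 and WT_NCD 4, and 1 to 3 with 1 library left out. On the high-fat diet they were 5 by limma-voom, 1 with the compared groups alone, 3 without either pair and 0 to 1 with 1 library left out (1 without App_NCD 553). On the control diet they were 1 by DESeq2, by limma-voom and without either pair, and 0 to 1 with 1 library left out (1 without WT_NCD 4). Diet over both genotypes had 1 by limma-voom.

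Signs turned mostly for values near 0. On the control diet, genotype gave -0.01 for F13a1 with library totals, Pf4 gave 0.06 with oligodendrocyte scaling, 0.43 by limma-voom, 0.24 without App_NCD 553 and WT_NCD 4 and 0.03 without WT_HFD 16 and WT_NCD 4, and Ms4a7 gave 0.16 by limma-voom and 0.27 without App_NCD 553 and WT_NCD 4. On the high-fat diet Cbr2 gave -0.02 by DESeq2 and with RLE factors, -0.10 with library totals, -0.01 with no filter and -0.04 with the compared groups alone. Over both diets Cbr2 gave 0.10 by limma-voom and 0.09 without WT_HFD 16 and WT_NCD 4, and Pf4 -0.00 with library totals. Diet in App with library totals gave 0.19 for Cd163 and 0.10 for F13a1, oligodendrocyte scaling gave -0.05 for Cbr2, and limma-voom gave 0.07 for Mrc1, 0.23 for Cd163, 0.02 for Lyve1, 0.03 for F13a1, -0.15 for Ms4a7 and -0.09 for Cbr2. Without App_NCD 553 and WT_NCD 4 it gave 0.10 for Cd163, -0.09 for Ms4a7 and -0.03 for Cbr2, and Cd163 gave 0.02 for diet over both genotypes. The interaction of Lyve1 was 0.25 with library totals, 0.07 with oligodendrocyte scaling and 0.34 by limma-voom.

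With 1 library left out, values that changed sign ran from -0.01 to 0.45 for F13a1, -0.27 to 0.13 for Pf4 and -0.49 to 0.02 for Ms4a7 (genotype, control diet), from -0.24 to 0.47 for Cbr2 (genotype, high-fat diet) and -0.35 to 0.00 for Cbr2 (genotype, both diets). For diet in App they ran from -0.14 to 0.15 for F13a1, -0.23 to 0.11 for Cd163, -0.08 to 0.42 for Ms4a7 and -0.02 to 0.25 for Cbr2, and for diet over both genotypes from -0.34 to 0.02 for Cbr2. Interactions ran from -0.36 to 0.24 for Lyve1, -0.05 to 0.36 for Mrc1 and -0.05 to 0.39 for Cd163.

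Over all tested genes, genotype over both diets called 3692 genes, 2312 higher and 1380 lower, against 1315 higher and 2064 lower with library totals, 2110 and 356 with oligodendrocyte scaling, 10161 in all by limma-voom, 7504 without App_NCD 553 and WT_NCD 4, and 2869 to 7502 with 1 library left out. The 1826 calls on the control diet ran from 505 with the compared groups alone to 7233 by limma-voom, the 1554 on the high-fat diet from 777 with oligodendrocyte scaling to 6680 by limma-voom, and the 10 of diet over both genotypes from 0 to 511. Library totals moved the median of all genes to -0.201 for genotype over both diets, against -0.013. No paired analysis was possible because the groups share no replicate numbers. With 4 libraries a group, standard errors of 0.174 to 0.294 for genotype over both diets limit what could be resolved. The part of depth in these errors was not tested.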
